A study of Arabidopsis thaliana with 12 samples.

Results

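The messenger RNA of wild-type Arabidopsis thaliana seedlings was compared between 5 d and 12 d of age, normal seedling growth with no mutant library. The comparison used 6 of the 12 libraries of the series, all those whose titles name the wild type: 3 titled 5 d and 3 titled 12 d. All 6 came from whole, untreated seedlings on solid Murashige and Skoog medium under long days, and all were planted on the same date. By the planting and harvest dates, replicates 1, 2 and 3 were taken 5, 6 and 7 days after planting in the younger group and 12, 13 and 14 days after planting in the older group, so the replicate number and the exact age cannot be told apart. The series also holds a snap33 mutant, which was not used here. The submitters describe the replicates as biological, without naming separate plates or seed lots, and p-values therefore measure only the spread between these samples.

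After germination an Arabidopsis seedling first lives on oil and protein stored in its cotyledons, turning fatty acids into sugar through β-oxidation and the glyoxylate cycle. It then becomes autotrophic, its root system grows and takes up minerals, and new leaves arise from the shoot meristem by cell division. The juvenile shoot later passes through a vegetative phase change in which the microRNA miR156 declines and its targets, the SPL transcription factors, become active.

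The 6 libraries held 4551031 to 5754570 reads counted on genes, and between 21583 and 22253 genes had at least 1 read. Each wild-type library is also labelled with knock-out wording under genotype, so the gene mutated in the other libraries of the series was examined first. SNAP33 (AT5G61210), a plasma membrane SNARE of vesicle fusion, had 95, 109 and 95 reads at 5 d and 119, 168 and 108 reads at 12 d, which is 21.3, 21.5 and 21.3 CPM (reads scaled to a common library size) and 24.2, 28.1 and 21.5 CPM. Transcript was thus counted at all 6 libraries, and the difference was not called (log2 fold change 0.21 ± 0.16 SE, adjusted p = 0.331; log2 fold change 0.075 without 12 d replicate 2). On the first principal component, which held 73.5% of the variance of log2 CPM, the 5 d libraries lay between -52.2 and -48.3 and the 12 d libraries at 55.6, 37.4 and 58.0, replicate 2 being the nearest to the younger seedlings. On the second component (10.9%), 12 d replicate 3 stood at 36.6, apart from 12 d replicates 1 and 2 at -19.1 and -22.3. Summed levels of markers of root hairs (5 genes: 94.5, 67.3 and 127 CPM at 12 d) and of the endodermis (6 genes: 158, 133 and 262 CPM) were highest in that same library. The defining embryo and seed markers OLEO1, CRA1, SESA1, EM1 and EM6 summed to at most 8.13 CPM in any library, and the shoot mesophyll markers to 11583 to 15087 CPM. In whole seedlings, fewer cells of a type and less RNA per cell cannot be told apart.

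Of 17836 genes with enough reads to test, 6509 (36.5%) were called at an adjusted p under 0.05, 3398 (19.1%) higher and 3111 (17.4%) lower at 12 d. The share of calls that were higher was 52.2%, and 62.9% when libraries were scaled by plain library size, a scaling that moved the median log2 fold change of all tested genes from 0.04 to 0.13. Large changes were mostly gains. At least 2-fold higher were 1504 genes (8.43%) and at least 2-fold lower 668 (3.75%), and at least 4-fold higher were 440 (2.47%) and at least 4-fold lower 56 (0.314%). Leaving out 12 d replicate 2 raised the 2-fold and 4-fold lower counts to 1050 and 90. The libraries of both ages did not overlap for 8739 genes (49%). The 34 lists of genes with known roles were chosen with earlier results of these data known, so their counts are a description. Among them, genes of ribosomes, cell division, flavonoid synthesis and iron acquisition were mostly lower at 12 d. Genes of phosphate starvation, jasmonate and ethylene defence, dehydration and senescence were mostly higher.

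**Figure D1:**
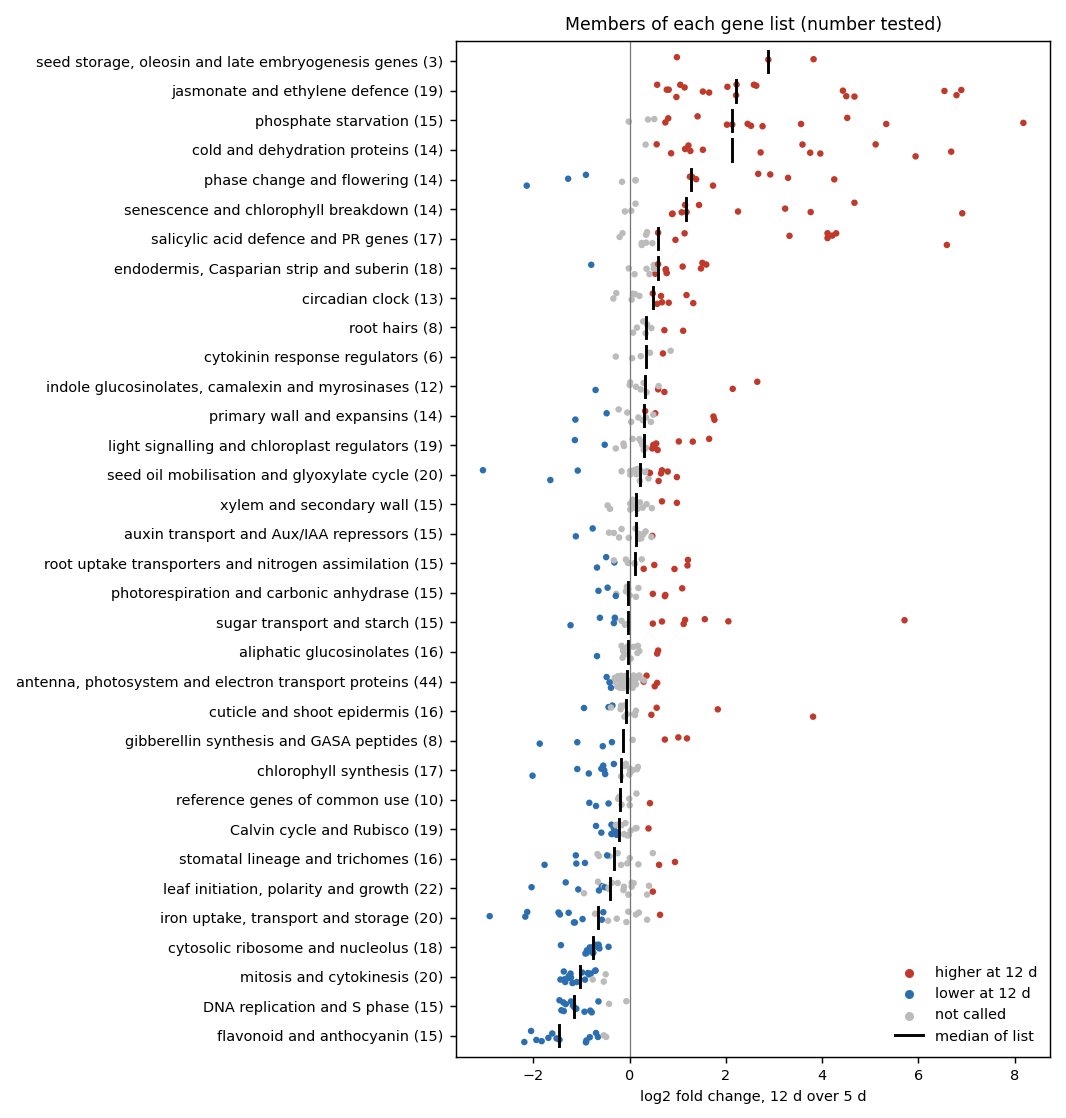
Log2 fold changes (12 d over 5 d, x axis) of every tested member of the 34 gene lists, one row per list with the number tested in brackets, ordered by the list median (black bar). Red and blue points are members called higher and lower at an adjusted p under 0.05 and grey points were not called. All 18 ribosome and nucleolus members lie left of 0 and all 19 tested jasmonate and ethylene members right of 0. Lists and members were chosen with earlier results of these data known.

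Genes with the largest gains had few or no reads at 5 d. AT5G15500, an ankyrin repeat protein, and FAMT (AT3G44860), a farnesoic acid carboxyl-O-methyltransferase, had no read at 5 d. AT5G15500 had 47.4, 21.6 and 48.3 CPM at 12 d, and FAMT 32.7, 30.2 and 17.6 CPM. Against a floor of 3 reads over the 5 d group they were at least 177-fold and at least 126-fold higher. NAC019 (AT1G52890), a NAC transcription factor of abscisic acid and jasmonate responses, had 0, 0.197 and 0 CPM at 5 d and 65.1, 25.1 and 36.9 CPM at 12 d (log2 fold change 8.77, or 10.71 without 5 d replicate 2, which held the one 5 d read; adjusted p = 1.34e-06). ELI3-2 (AT4G37990), a cinnamyl alcohol dehydrogenase family member, rose from 0.449, 0.197 and 0.224 CPM to 151, 51.6 and 68.6 CPM (log2 fold change 8.18 ± 0.60, adjusted p = 1.17e-06; 7.56 without 12 d replicate 1). LTP4 (AT5G59310), a lipid transfer protein, rose from 1.35, 0.789 and 1.35 CPM to 418, 108 and 242 CPM (7.77 ± 0.55, adjusted p = 9.56e-07). In 4 of these 5 genes 12 d replicate 2 was the lowest of the older libraries. Only genes whose ages did not overlap were ranked, so the separation of the ages was set by the choice. The others of the 10 with the largest fitted gains were IPS1 (a noncoding RNA of phosphate starvation), AT2G38240 (a 2-oxoglutarate and Fe(II)-dependent oxygenase), NATA1 (an N-acetyltransferase), SAG13 (a senescence-associated gene) and PDF1.3 (a defensin).

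The largest losses were smaller in scale than the largest gains. AT3G12900, a 2-oxoglutarate and Fe(II)-dependent oxygenase, went from 47.6, 65.5 and 49.8 CPM to 1.22, 0 and 2.99 CPM (log2 fold change -5.33 ± 0.43, adjusted p = 2.54e-06; -4.69 without 12 d replicate 2 and -6.56 without 12 d replicate 3). AT5G40590, a cysteine/histidine-rich C1 domain protein, went from 37.5, 49.0 and 38.8 CPM to 2.03, 1.51 and 4.39 CPM (-4.0 ± 0.28, adjusted p = 8.59e-07). AT4G36700, a cupin family protein, stood at 128, 75.8 and 101 CPM and then at 12.8, 11.6 and 9.77 CPM (-3.15 ± 0.20, adjusted p = 4.23e-07). Non-overlap of the ages was again a condition of the ranking. The remaining genes of this rank were ICL, NAS2, GSTL1 (a lambda glutathione transferase), AT5G38820 (an amino acid transporter family member), AT1G03940 (an acyltransferase family member) and the uncharacterised AT1G53635 and AT1G36640, with log2 fold changes of -3.05 to -2.69.

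By difference in mean CPM the 6 largest gains included AT1G62510, a protein of the lipid-transfer and seed storage inhibitor family, which had 393, 373 and 441 CPM and then 1200, 791 and 837 CPM (1.23 ± 0.15, adjusted p = 5.05e-05). That gene overlaps an antisense gene by 535 bases, and use of strand in counting is not given in the sources used here. ESM1 (AT3G14210), a modifier of glucosinolate breakdown, rose from 269, 208 and 270 CPM to 830, 807 and 726 CPM (1.66 ± 0.12, adjusted p = 1.22e-06). NSP5 (AT5G48180), a nitrile specifier protein of the same breakdown route, rose from 333, 382 and 358 CPM to 989, 646 and 735 CPM (1.14 ± 0.14, adjusted p = 7.21e-05), and AT4G11320, a papain family protease, from 247, 218 and 251 CPM to 699, 618 and 599 CPM. The largest losses in CPM were in transcripts of chloroplast function and in AT3G05730, a defensin-like protein, which went from 1180, 1160 and 1180 CPM to 331, 391 and 326 CPM (-1.75 ± 0.10, adjusted p = 3.55e-07). THI1 (AT5G54770), an enzyme of thiamine synthesis in the chloroplast, fell from 2990, 2880 and 2830 CPM to 2120, 1930 and 1990 CPM (-0.53 ± 0.09, adjusted p = 0.000446).

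Most transcripts of the seed itself were too few to test. Of 23 genes for storage proteins, oleosins and late embryogenesis, 20 had too few reads to test. OLEO1, the coat protein of oil bodies, had 3, 0 and 4 reads at 5 d and 1, 0 and 0 at 12 d, and CRA1, a cruciferin, at most 1 read in any library. SESA2 (AT4G27150), an albumin of the seed, was the 1 gene with at least 30 reads at 5 d and none at 12 d: it had 13, 7 and 15 reads at 5 d and was at least 13.3-fold lower at 12 d. The 3 members that could be tested were all higher at 12 d (19.1% of all tested genes were). RAB18 (AT5G66400), a dehydrin made in seeds and in response to abscisic acid, had 18.6, 10.5 and 28.5 CPM and then 443, 130 and 237 CPM (3.82 ± 0.41, adjusted p = 2.34e-05; 3.23 without 12 d replicate 1). M10 rose from at most 0.898 CPM to 4.88, 5.36 and 2.79 CPM (adjusted p = 0.000478). OLEO4 was called (0.98 ± 0.30, adjusted p = 0.0216) but not without 5 d replicate 1 or 2 or 12 d replicate 1 (adjusted p = 0.103, 0.0968 and 0.0932).

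Both enzymes that are specific to the glyoxylate cycle fell. ICL (AT3G21720), isocitrate lyase, had 36.8, 84.3 and 70.9 CPM at 5 d and 3.66, 13.9 and 4.99 CPM at 12 d (log2 fold change -3.05 ± 0.39, adjusted p = 8.35e-05; -3.90 without 12 d replicate 2). MLS (AT5G03860), malate synthase, had 9.43, 7.50 and 11.0 CPM and then 2.44, 3.35 and 2.99 CPM (-1.65 ± 0.26, adjusted p = 0.000374). The wider oil mobilisation list did not move as one. Of 20 members, all tested, 3 were lower, 6 higher and 11 not called, beside 17.4% lower and 19.1% higher of all tested genes. The median was 0.21, and 10 were higher with plain library size and 7 with all 12 libraries. KAT5, a thiolase of β-oxidation, was the third that fell, from 160, 139 and 138 CPM to 63.8, 77.9 and 64.4 CPM (-1.08 ± 0.13, adjusted p = 4.4e-05). ACX2, an acyl-CoA oxidase of long chains, rose from 20.4, 18.6 and 20.9 CPM to 39.2, 35.5 and 43.7 CPM (0.98 ± 0.15, adjusted p = 0.000281), as did the short-chain oxidase ACX4, the oil lipase SDP1 and the peroxisomal citrate synthase CSY3. PCK1, the carboxykinase that starts sugar synthesis from these acids, was at 93.2, 91.2 and 79.4 CPM and then 107, 121 and 124 CPM (0.42 ± 0.12, adjusted p = 0.0159; 0.0995 without 5 d replicate 3).

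Genes of protein synthesis and cell division were lower at 12 d. Every one of the 18 ribosome and nucleolus genes was called lower (17.4% of all tested genes were), with a list median of -0.76 and single values from -1.43 to -0.44. FIB2 (AT4G25630), a fibrillarin of ribosomal RNA processing, had 206, 201 and 203 CPM and then 68.7, 89.3 and 67.4 CPM (-1.43 ± 0.13, adjusted p = 6.1e-06). RPS13A (AT4G00100), a protein of the small ribosomal subunit, had 584, 586 and 569 CPM and then 365, 362 and 320 CPM (-0.73 ± 0.10, adjusted p = 0.000146). RPS5B and AT2G19730, 2 further ribosomal proteins, had log2 fold changes of -0.76 each. The summed level of the list was 8613 to 9516 CPM at 5 d and 4656 to 5961 CPM at 12 d.

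Of 21 mitosis and cytokinesis genes 20 were tested, 17 were lower (17.4% of all tested genes were) and none higher (median -1.04). KN (AT1G08560), the syntaxin of the cell plate, fell from 29.0, 33.4 and 31.4 CPM to 12.6, 16.6 and 10.6 CPM (-1.23 ± 0.18, adjusted p = 0.000247). HIK (AT1G18370), the kinesin needed for cytokinesis, fell from 9.88, 9.28 and 10.8 CPM to 4.07, 3.35 and 3.59 CPM (-1.44 ± 0.22, adjusted p = 0.000348). Mitotic cyclins followed: CYCB1;2 had 20.9, 16.6 and 13.5 CPM and then 7.12, 7.54 and 6.38 CPM (adjusted p = 0.000517), and CYCB1;1 had 4.49, 4.34 and 3.59 CPM and then 0.813, 2.35 and 1.6 CPM (adjusted p = 0.0117). In none of these 4 genes did the ages overlap, as in 49% of all tested genes. Of 15 genes of DNA replication and S phase, all tested, 13 were lower and none higher (median -1.15), beside the same 17.4% lower. PCNA1 (AT1G07370), the sliding clamp of DNA polymerase, fell from 42.0, 40.9 and 40.4 CPM to 14, 18.4 and 12.0 CPM (-1.46 ± 0.17, adjusted p = 4.25e-05). TSO2, a ribonucleotide reductase subunit, fell from 272, 236 and 268 CPM to 137, 146 and 120 CPM, and the helicase subunits MCM3 and PRL fell with log2 fold changes of -1.15 and -1.38.

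**Figure D2:**
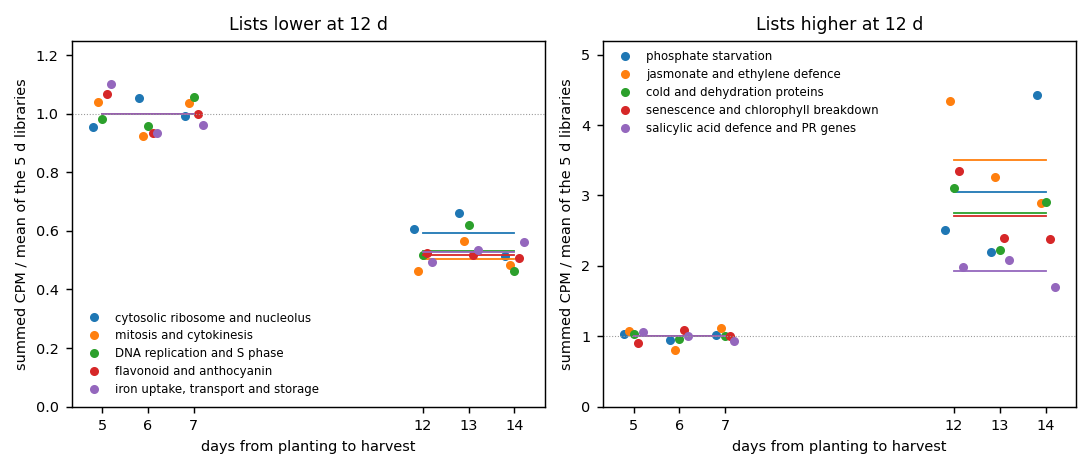
Summed CPM of 5 lists that were mostly lower (left) and 5 that were mostly higher (right) at 12 d, divided by the mean of the 5 d libraries, against days from planting to harvest; each point is 1 library, shifted slightly sideways, and lines are means of 3. The lower lists lie below every 5 d library in all 3 older libraries, and among the higher lists the phosphate list stands highest in the library of day 14.

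Of 23 regulators of leaf initiation, 22 were tested, 6 were lower, 1 higher and 15 not called (median -0.40), where 17.4% of all tested genes were lower and 19.1% higher. Without 12 d replicate 2 the number lower was 10, and the number higher was 0 without 5 d replicate 1 or 3 and 2 without 12 d replicate 3. GRF5 and GRF3, growth-regulating factors that promote division in young leaves, had 3.37, 4.74 and 4.49 CPM and then 1.02, 1.01 and 0.997 CPM (-2.04 ± 0.35, adjusted p = 0.000623) and 14.8, 11.1 and 15.5 CPM and then 4.07, 6.03 and 6.18 CPM (-1.33 ± 0.23, adjusted p = 0.000704). Their coactivator GIF1 fell from 53.0, 47.0 and 53.2 CPM to 27.2, 30 and 15.2 CPM (-1.07 ± 0.20, adjusted p = 0.0013). STM, the homeobox gene of the shoot meristem, was not called: it had 7.41, 6.91 and 10.5 CPM at 5 d and 15.2, 14.1 and 3.19 CPM at 12 d, with the lowest value of all 6 libraries in 12 d replicate 3. Stomatal and trichome genes gave 5 lower and 2 higher of 16 tested of 18, beside the same 17.4% and 19.1%. SPCH, which starts the stomatal lineage, fell from 17.7, 13.8 and 12.6 CPM to 6.10, 8.38 and 8.58 CPM (-0.93 ± 0.21, adjusted p = 0.00438), and TTG2, a WRKY factor of trichomes and seed coats, from 4.94, 4.74 and 3.36 CPM to 1.02, 1.34 and 1.40 CPM (adjusted p = 0.00137). TRY and TTG1, a repressor and a WD40 regulator of trichome fate, were the 2 that rose (0.94 ± 0.20 and 0.61 ± 0.13, adjusted p = 0.0029 and 0.00287).

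Most nuclear photosynthesis genes, among the abundant transcripts of the seedlings, were not called. Of 44 antenna, photosystem and electron transport genes, all tested, 37 were not called, 4 were higher and 3 lower. Of all tested genes 19.1% were higher and 17.4% lower. The values of the list spanned -0.48 to 0.57. The number lower was 8 with all 12 libraries, 11 with upper-quartile scaling, 1 without 5 d replicate 2 and 6 without 12 d replicate 2, and the number higher was 2 without 5 d replicate 1 or 3 or 12 d replicate 1 or 2. PSAD-2, a photosystem I subunit, rose from 299, 368 and 343 CPM to 496, 530 and 426 CPM (0.52 ± 0.12, adjusted p = 0.00411), and LHCB4.3, a minor antenna protein, from 84.9, 84.5 and 63.3 CPM to 113, 115 and 117 CPM (0.57 ± 0.13, adjusted p = 0.00477). FNR2, a ferredoxin-NADP reductase, fell from 411, 379 and 371 CPM to 277, 299 and 294 CPM (-0.42 ± 0.10, adjusted p = 0.00651). LHCB2.1, a light-harvesting protein, had 1660, 1890 and 1830 CPM and then 2360, 2180 and 2020 CPM (0.29 ± 0.10, adjusted p = 0.0314), a call lost without 5 d replicate 1 or 3 or 12 d replicate 1 or 2 (adjusted p = 0.16, 0.0962, 0.209 and 0.103). That call was also lost with RLE size factors, upper-quartile scaling, DESeq2 and days from planting as a number (adjusted p = 0.056, 0.106, 0.0793 and 0.062).

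Calvin cycle genes gave 8 lower and 1 higher of 19, all tested (median -0.23), beside 17.4% and 19.1% of all tested genes. The number lower was 5 without 5 d replicate 1 and 3 without 5 d replicate 2. None was higher without 5 d replicate 1 or 3 or 12 d replicate 1 or 2. PGK1, a phosphoglycerate kinase, fell from 996, 1050 and 973 CPM to 683, 727 and 602 CPM (-0.59 ± 0.10, adjusted p = 0.000705), and TKL1, a transketolase, from 912, 1090 and 971 CPM to 613, 746 and 465 CPM (-0.70 ± 0.15, adjusted p = 0.00246). RBCS1A, the leading small subunit gene of Rubisco, had 5280, 6160 and 5440 CPM and then 4700, 4580 and 4170 CPM (-0.33 ± 0.09, adjusted p = 0.0123; 0.0584 without 5 d replicate 2), and RBCS genes are near-identical copies between which reads cannot be divided with certainty. Chlorophyll synthesis held 8 lower and no higher genes among 17 tested of 18 (median -0.18), where 17.4% of all tested genes were lower. PORB (AT4G27440), a light-dependent protochlorophyllide reductase, changed most, from 158, 110 and 144 CPM to 31.5, 42.0 and 27.9 CPM (-2.02 ± 0.18, adjusted p = 4.38e-06). PORA, the reductase of dark-grown seedlings, had at most 2 reads in any library. GSA2, an aminotransferase of the first steps, fell from 111, 138 and 115 CPM to 50.8, 70.2 and 49.7 CPM (-1.09 ± 0.15, adjusted p = 0.000171). Photorespiration genes were divided, 4 higher and 3 lower of 15 tested of 16, beside 19.1% and 17.4% of all tested genes. CAT3, a catalase, rose from 179, 175 and 184 CPM to 425, 384 and 338 CPM (1.09 ± 0.11, adjusted p = 1.79e-05).

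Genes of flavonoid and anthocyanin synthesis were mostly lower. Of 18 genes 15 were tested, 13 were lower (17.4% of all tested genes were) and none higher (median -1.46). The first enzyme, chalcone synthase TT4 (AT5G13930), had 1430, 1330 and 1340 CPM and then 898, 820 and 881 CPM (-0.66 ± 0.09, adjusted p = 0.000154). Late enzymes of the anthocyanin branch changed more. LDOX (AT4G22880), anthocyanidin synthase, fell from 234, 172 and 228 CPM to 66.3, 44.4 and 54.9 CPM (-1.94 ± 0.17, adjusted p = 3.84e-06). AT4G14090, an anthocyanin glucosyltransferase, fell from 114, 105 and 111 CPM to 32.9, 23.0 and 16.4 CPM (-2.19 ± 0.19, adjusted p = 4.61e-06), and 5MAT, which adds a malonyl group, from 38.6, 31.6 and 32.3 CPM to 9.76, 7.54 and 7.38 CPM (-2.05 ± 0.18, adjusted p = 4.53e-06). TT19, the glutathione transferase that carries anthocyanin to the vacuole, had a log2 fold change of -1.46 ± 0.13. The MYB regulator PAP1 fell by 0.83 and its partner TT8 by 1.61 on the log2 scale, whereas MYB12 and MYB111, regulators of the flavonol branch, were at -0.54 and -0.49 and not called (adjusted p = 0.0584 and 0.152).

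Genes of iron acquisition were mostly lower. Of 20 genes, all tested, 11 were lower, 1 higher and 8 not called (median -0.65). The share over all tested genes was 17.4% lower and 19.1% higher. NAS2 (AT5G56080), a nicotianamine synthase whose product binds iron and zinc, fell from 304, 331 and 318 CPM to 26.0, 41.5 and 58.8 CPM (-2.91 ± 0.22, adjusted p = 1.29e-06). FRO2 (AT1G01580), the ferric reductase of the root surface, fell from 262, 231 and 214 CPM to 34.8, 30.5 and 92.0 CPM (-2.17 ± 0.31, adjusted p = 0.000197; -2.86 without 12 d replicate 3). IRT1 (AT4G19690), the iron transporter of the root epidermis, fell from 374, 311 and 322 CPM to 42.5, 50.9 and 137 CPM (-2.13 ± 0.32, adjusted p = 0.000302; -2.85 without 12 d replicate 3). FRU (AT2G28160), the basic helix-loop-helix regulator above both, fell from 32.6, 28.2 and 29.2 CPM to 9.56, 7.87 and 15 CPM (-1.48 ± 0.21, adjusted p = 0.000207). In these 4 genes the ages did not overlap, as in 49% of all tested genes, and 12 d replicate 3 had the highest of the 12 d values. NAS1 fell from 538, 413 and 484 CPM to 206, 155 and 233 CPM (-1.27 ± 0.15, adjusted p = 4.7e-05), and BHLH038 and BHLH039, partners of FRU, fell by 1.14 and 1.16 on the log2 scale. Storage genes did not all follow: FER1, a ferritin, had 307, 261 and 334 CPM and then 293, 246 and 321 CPM and was not called, and FER3 fell by 0.55 (adjusted p = 0.00592). PYE, a basic helix-loop-helix factor of the iron deficiency response, was the 1 gene that rose, from a mean of 17.3 ± 2.72 CPM (SD, n = 3) to 26.7 ± 1.47 CPM (0.63 ± 0.16 SE, edgeR adjusted p = 0.00946; 0.0614 without 5 d replicate 3). The short peptide loci AT1G47400 and AT1G47395 were not called (0.19 and -0.27, adjusted p = 0.488 and 0.36). OPT3, a transporter of the phloem, and BTS, a ubiquitin ligase that restrains the iron response, were also not called.

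Phosphate starvation genes moved the other way. Of 15 genes, all tested, 12 were higher (19.1% of all tested genes were) and none lower, with a median of 2.13. SPX1 (AT5G20150), a sensor protein that restrains the response, rose from 17.3, 13.4 and 23.6 CPM to 84.6, 73.9 and 152 CPM (2.52 ± 0.27, adjusted p = 2.11e-05). AT4 (AT5G03545), a noncoding RNA that mimics a target of the microRNA miR399, rose from 63.8, 69.9 and 51.4 CPM to 219, 186 and 348 CPM (2.02 ± 0.21, adjusted p = 1.62e-05). Its relative IPS1 had 0, 0.197 and 0 CPM and then 28.5, 13.9 and 41.9 CPM (adjusted p = 4.75e-06). The acid phosphatase PAP17 rose from 18.4, 16.2 and 18.8 CPM to 78.7, 77.6 and 135 CPM (2.45 ± 0.21, adjusted p = 4.53e-06), and GDPD1, a phosphodiesterase of lipid recycling, from 11.2, 8.88 and 10.5 CPM to 56.7, 50.1 and 101 CPM (2.76 ± 0.26, adjusted p = 7.44e-06). Of the genes that replace phospholipids by other lipids, SQD2, of sulfolipid synthesis, had 116, 109 and 271 CPM at 12 d after 64.7, 54.3 and 67.3 CPM, and MGD3, of galactolipid synthesis, had 11.8, 7.54 and 52.1 CPM after 1.35, 0.592 and 1.12 CPM (log2 fold change 4.52, or 3.22 without 12 d replicate 3). The summed level of the list was 283 to 306 CPM at 5 d and 748, 654 and 1319 CPM at 12 d, so that the library of day 14 was highest. Endodermis and root hair markers were also highest there, and their part in the phosphate values was not tested. Without that library 11 of the 15 genes were called higher. The phosphate transporter PHT1;4 was not called (0.51, adjusted p = 0.0965).

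**Figure D3:**
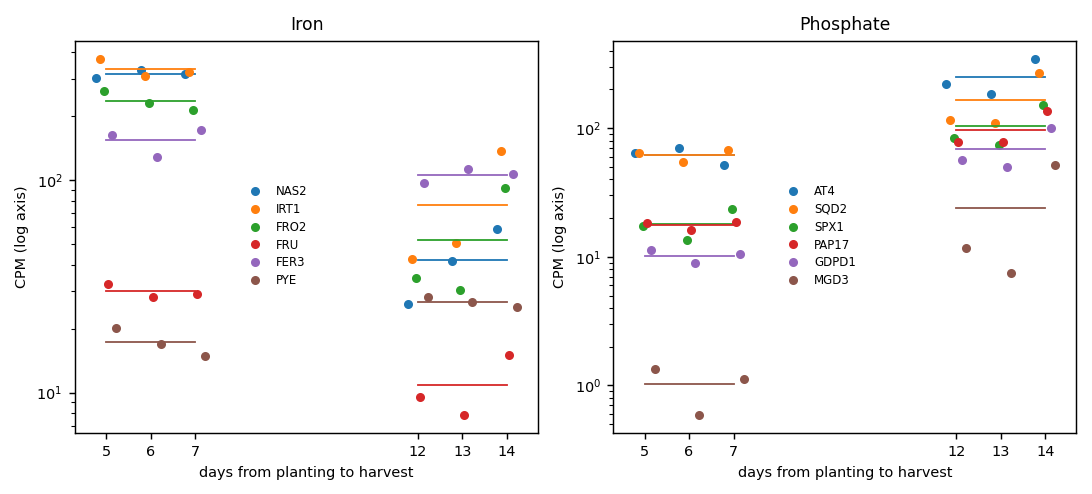
CPM on a log axis of 6 iron genes (left) and 6 phosphate starvation genes (right) against days from planting to harvest; points are single libraries, shifted slightly sideways, and lines are means of 3. NAS2, IRT1, FRO2 and FRU are lower in every 12 d library and PYE is higher, while all 6 phosphate genes are higher at 12 d with their highest value on day 14.

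The promoters of the phosphate genes were searched for the letters of a known regulator's site. The letters GNATATNC, a binding site of the phosphate regulator PHR1 known from Arabidopsis, were searched on both strands in the 250 bases before each gene start of the TAIR10.1 annotation of RefSeq, a motif added after the data had been seen. They were present in 6 of the 15 phosphate promoters (40.0%), in 978 of 17740 tested nuclear genes (5.51%) and in 36 of the 440 genes at least 4-fold higher (8.18%). SPX3 and GDPD1 held 2 sites each and are shown because both rose and no other gene overlaps their window. SPX3 (AT2G45130) had 0, 0.197 and 0 CPM at 5 d and 2.64, 2.68 and 6.38 CPM at 12 d (log2 fold change 5.33, or 7.27 without 5 d replicate 2, which held the one 5 d read; adjusted p = 0.000303). The capitals mark the sites, which start 213 and 90 bases before the gene in SPX3 (chr2:18606160-18606409, plus strand) and 127 and 63 bases before it in GDPD1 (chr3:350011-350260, minus strand). Of 6 other sets of letters searched in the promoters of 8 lists, CACGTG (the G-box) was present in 7 of 18 flavonoid, 6 of 20 iron, 5 of 16 clock and none of the 15 phosphate promoters, against 7.49% of all tested nuclear genes. GATAAG (the I-box) was present in 9 of 22 jasmonate and ethylene promoters (40.9%), against 12.4%, and ACGTGTC in 6 of 20 iron promoters, against 4.35%. A match is a description of the letters and does not show binding.
SPX3: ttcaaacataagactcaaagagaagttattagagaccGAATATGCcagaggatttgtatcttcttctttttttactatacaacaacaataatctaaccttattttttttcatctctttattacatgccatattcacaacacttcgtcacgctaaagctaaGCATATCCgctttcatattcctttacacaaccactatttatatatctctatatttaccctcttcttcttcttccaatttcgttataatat
GDPD1: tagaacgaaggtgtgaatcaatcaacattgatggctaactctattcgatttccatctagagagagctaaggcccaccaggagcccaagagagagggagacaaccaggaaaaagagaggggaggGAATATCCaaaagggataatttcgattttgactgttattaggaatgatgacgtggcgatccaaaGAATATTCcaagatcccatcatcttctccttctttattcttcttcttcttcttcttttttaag

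Other mineral genes were mixed, with 5 higher and 3 lower of 15 tested of 18 uptake and nitrogen assimilation genes. Of all tested genes 19.1% were higher and 17.4% lower. Leaving out single libraries lowered the number higher to 2 (5 d replicate 1 or 2) or 3 (5 d replicate 3, 12 d replicate 1 or 2), and the number lower to 1 (5 d replicate 1 or 3, 12 d replicate 1). GS2 (AT5G35630), the chloroplast glutamine synthetase, fell from 1480, 1560 and 1370 CPM to 909, 927 and 915 CPM (-0.68 ± 0.09, adjusted p = 0.000122). The tonoplast aquaporins TIP2;2 and TIP2;3 of the root rose from 149, 170 and 167 CPM to 352, 327 and 432 CPM (1.2 ± 0.13, adjusted p = 1.89e-05) and from 76.8, 84.1 and 85.0 CPM to 161, 123 and 187 CPM (0.93 ± 0.15, adjusted p = 0.000403). The nitrate reductase gene NIA1 was called (0.51, adjusted p = 0.0132) but not without 5 d replicate 1 or 2 or 12 d replicate 1 or 2 (adjusted p = 0.0764, 0.0693, 0.0737 and 0.0513), and the nitrate transporter NRT1.1 had 152, 149 and 146 CPM and then 144, 147 and 148 CPM. The high-affinity nitrate transporter NRT2.1 had 10, 7 and 9 reads at 5 d and 1 read in each 12 d library, too few to test.

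Of 19 genes of the endodermis, Casparian strip and suberin 18 were tested, 9 were higher and 1 lower (median 0.58). The share over all tested genes was 19.1% higher and 17.4% lower. KCS2 (AT1G04220), a fatty acid elongase of suberin, rose from 16.4, 18.0 and 18.8 CPM to 52.0, 40.5 and 59.6 CPM (1.51 ± 0.17, adjusted p = 2.95e-05), and its locus overlaps an annotated antisense gene over 2302 bases. GPAT5, an acyltransferase of suberin with no such overlap, rose from 3.14, 4.15 and 3.59 CPM to 8.54, 11.6 and 10.4 CPM (1.48 ± 0.24, adjusted p = 0.000442). FAR1 and CYP86B1, a reductase and a hydroxylase of suberin monomers, rose by 1.59 and 0.75 on the log2 scale. The FAR1 locus overlaps an antisense gene over 1310 bases. CASP1, a membrane protein of the Casparian strip, had 65.4, 68.3 and 73.6 CPM and then 88.8, 74.0 and 137 CPM (0.53 ± 0.19, adjusted p = 0.042). Without 12 d replicate 3 its log2 fold change was 0.23 (adjusted p = 0.16), and the call was also lost without any 5 d library (adjusted p = 0.137, 0.121 and 0.0766) or without 12 d replicate 1 (0.0508). Upper-quartile scaling and limma-voom lost the CASP1 call too (adjusted p = 0.0652 and 0.0636). The list held 6 higher genes without 12 d replicate 3 and also without 5 d replicate 2 or 3, and 11 without 12 d replicate 2, and no lower gene without any 5 d library or without 12 d replicate 1 or 2. Root hair genes gave 2 higher of 8 tested of 10 (19.1% of all tested genes were), and 4 higher without 12 d replicate 2. The 2 were PRP1 (1.11 ± 0.28, adjusted p = 0.00809) and PRP3, both proline-rich wall proteins. The PRP3 call was lost without any 5 d library, 12 d replicate 1 or 12 d replicate 3 (adjusted p = 0.0551 to 0.163). Upper-quartile scaling lost it too (adjusted p = 0.0511).

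Wall genes of the xylem were largely not called, with 2 higher (19.1% of all tested genes were) and none lower of 15 tested of 20. CESA4, a cellulose synthase of secondary walls, had 12.8, 12.0 and 10.8 CPM and then 18.7, 16.2 and 21.9 CPM (0.67 ± 0.18, adjusted p = 0.0111; 0.0569 without 5 d replicate 3), and the other call, IRX15, was lost without any 5 d library or without 12 d replicate 1 (adjusted p = 0.0585 to 0.212). The IRX15 call was also lost with upper-quartile scaling, DESeq2, limma-voom and days from planting as a number (adjusted p = 0.0539, 0.114, 0.0592 and 0.0855). In primary walls 4 genes were higher and 2 lower of 14, all tested, beside 19.1% and 17.4% of all tested genes. The number higher was 8 with plain library size, 7 with all 12 libraries and 6 without 12 d replicate 2. Without 5 d replicate 1, 2 were higher and 1 lower, and without 5 d replicate 3 also 1 lower. EXPA10, an expansin that loosens walls, rose from 31.4, 30 and 37.7 CPM to 126, 83.1 and 123 CPM (1.74 ± 0.17, adjusted p = 1.03e-05). EXPA8 rose from 6.29, 10.7 and 6.73 CPM to 18.9, 19.1 and 43.5 CPM (1.76 ± 0.33, adjusted p = 0.00123), with 12 d replicate 3 again the highest. XTH9, a xyloglucan-modifying enzyme, fell from 207, 195 and 187 CPM to 96.0, 106 and 67.8 CPM (-1.13 ± 0.15, adjusted p = 0.000121). In the shoot cuticle 4 genes were higher and 3 lower of 16 tested of 17, beside 19.1% and 17.4% of all tested genes. CER1 (AT1G02205), which makes wax alkanes, rose from 27.2, 24.7 and 36.3 CPM to 145, 77.9 and 91.4 CPM (1.83 ± 0.22, adjusted p = 5.41e-05), and WSD1, a wax ester synthase, rose from at most 1.12 CPM to 13.4, 7.37 and 7.38 CPM (3.81 ± 0.51, adjusted p = 0.000115; 4.40 without 5 d replicate 3).

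Regulators of vegetative phase change and flowering moved in both directions. Of 32 genes, 14 passed the count filter, 8 of them higher and 3 lower, and the 18 others had too few reads to test. The share over all tested genes was 19.1% higher and 17.4% lower. The SPL genes are targets of miR156, whose mature sequence is the same in the 6 precursors MIR156a to MIR156f and is shown with its seed, bases 2 to 8, in capitals. The sites of 3 targets are shown beneath it because they differ in place: that of SPL3 (chr2:14305878-14305897, plus strand) and that of SPL4 (chr1:19807090-19807109, plus strand) lie in the 3′ untranslated region and that of SPL9 (chr2:17589066-17589085, plus strand) in the coding sequence. Capitals in the sites mark letters that differ from a perfect complement of the microRNA, 2 in SPL3, 2 in SPL4 and 1 in SPL9.
miR156: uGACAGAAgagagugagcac
SPL3: UugcuUacucucuucuguca
SPL4: CugcucUcucucuucuguca
SPL9: gugcucUcucucuucuguca

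Most SPL genes with such a site had few reads, and more at 12 d. SPL3 (AT2G33810) had 2 reads over the 3 libraries of 5 d and 51 over those of 12 d, and SPL4 (AT1G53160) had 14 and 104. Both were called higher, SPL3 with 0, 0.395 and 0 CPM and then 2.85, 4.36 and 2.19 CPM (adjusted p = 0.00054) and SPL4 with 1.57, 0.789 and 0.673 CPM and then 6.51, 7.37 and 5.59 CPM (2.67 ± 0.35, adjusted p = 0.000112). The SPL3 log2 fold change of 4.25 rests on the 2 reads of 5 d replicate 2 and was 6.99 without that library. SPL6, with 14 and 54 reads, and SPL11, with 19 and 52, were called higher as well (adjusted p = 0.00357 and 0.0159). SPL11 was not called without 5 d replicate 1 or 3 or 12 d replicate 1 (adjusted p = 0.056, 0.0881 and 0.0591), nor by DESeq2 (0.0829). SPL5 (2 and 30 reads), SPL9 (9 and 33), SPL10 (13 and 50) and SPL15 (7 and 20) had more reads at 12 d but were too low to test. SPL2 (196 and 242) was not called, and SPL13A and SPL13B, near-identical copies, had no read. The precursors MIR156A, MIR156C, MIR172A and MIR172B had at most 3 reads in any library, so the microRNAs themselves were not measurable in these libraries. SPL3 overlaps an antisense gene over 1046 bases.

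Among other regulators of flowering, SOC1 (AT2G45660), a MADS-box promoter of flowering, had the smallest adjusted p, rising from 5.61, 6.12 and 4.26 CPM to 39.0, 35.9 and 47.5 CPM (2.92 ± 0.20, adjusted p = 7.17e-07). AGL24, its partner, rose from 0.449, 1.18 and 0.673 CPM to 7.93, 9.21 and 6.38 CPM (3.29 ± 0.37, adjusted p = 2.92e-05). SVP, a MADS-box repressor, rose too, from 22.7, 30.6 and 23.1 CPM to 66.9, 59.3 and 73.8 CPM (1.38 ± 0.15, adjusted p = 2.77e-05). FLC (AT5G10140), the repressor relieved by cold, fell from 6.51, 6.51 and 7.18 CPM to 2.03, 1.68 and 0.798 CPM (-2.14 ± 0.32, adjusted p = 0.000283), within a locus that an antisense gene overlaps over 6067 bases. Targets of miR172 were divided: the repressors TOE2 and SMZ fell by 0.91 and 1.28 on the log2 scale (adjusted p = 0.0012 and 0.00913), SNZ rose by 1.3 (adjusted p = 0.00151), and TOE1 and AP2 were not called. FT, the mobile flowering signal, had 3, 3 and 6 reads at 5 d and 7, 11 and 21 reads at 12 d and was too low to test. LFY and AP1, which mark floral meristems, had at most 2 reads in any library.

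**Figure D4:**
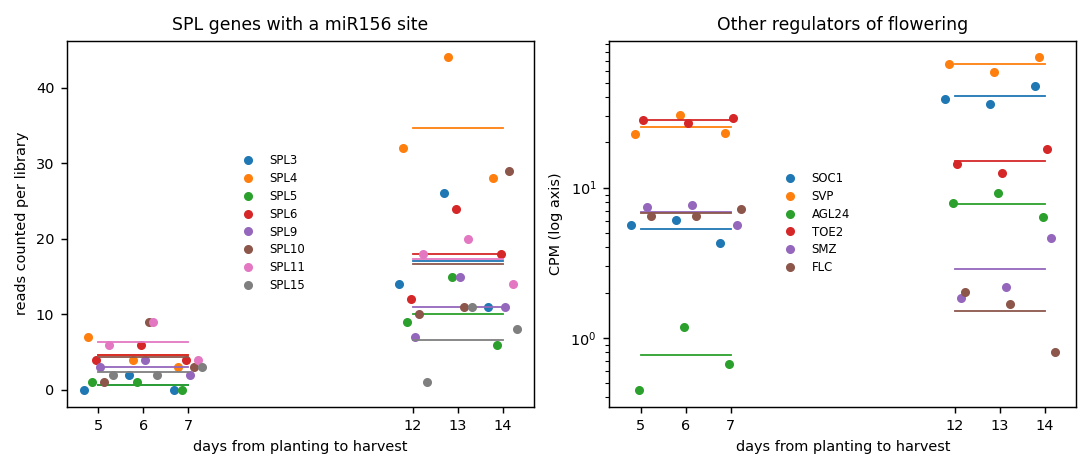
Reads counted per library for 8 SPL genes with a miR156 site (left, linear axis) and CPM of 6 other regulators of flowering (right, log axis) against days from planting to harvest; points are single libraries, shifted slightly sideways, and lines are means of 3. SPL2 (not called) and SPL13A and SPL13B (no read) also have a site and are not drawn. Of the SPL genes drawn, SPL4 has the most reads at 12 d in replicates 1 and 2. SOC1, SVP and AGL24 are higher in every 12 d library, and FLC, SMZ and TOE2 are lower.

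All testable genes of jasmonate and ethylene defence rose. Of 22 genes 19 were tested and all 19 were called higher (19.1% of all tested genes were), with a median of 2.21 and values from 0.57 to 6.89. The number called higher was 17 without 5 d replicate 2 and also without 12 d replicate 1. The defensins PDF1.3 (AT2G26010) and PDF1.2 (AT5G44420) went from 0.449, 0.987 and 1.57 CPM to 145, 106 and 116 CPM (6.89 ± 0.26, adjusted p = 1.82e-08) and from 0.225, 0.592 and 0.673 CPM to 56.7, 57.0 and 33.1 CPM (6.54 ± 0.37, adjusted p = 2.92e-07). PDF1 defensins are near-identical copies between which reads cannot be divided with certainty. VSP2 (AT5G24770), a vegetative storage protein induced by wounding, rose from 9.21, 6.51 and 6.73 CPM to 286, 182 and 104 CPM (4.67 ± 0.34, adjusted p = 1.08e-06). Synthesis enzymes rose less: AOC1, an allene oxide cyclase, from 6.06, 6.51 and 8.08 CPM to 45.1, 36.9 and 46.5 CPM (2.63 ± 0.18, adjusted p = 8.52e-07), and LOX2, a chloroplast lipoxygenase, from 72.5, 47.6 and 67.1 CPM to 374, 249 and 246 CPM (2.22 ± 0.19, adjusted p = 4.35e-06). Feedback repressors were also higher, JAZ10 at 6.06, 5.92 and 5.61 CPM and then 35.6, 23.8 and 22.3 CPM (2.21 ± 0.22, adjusted p = 1.37e-05). TAT3, a jasmonate-responsive aminotransferase, was one of 16 genes with no read at 5 d and at least 30 at 12 d, with 47, 158 and 7 reads, which is at least 62.1-fold higher, though the 12 d libraries were far apart. CSLG2, a cellulose synthase-like protein, was another, with 49, 35 and 33 reads (at least 34.3-fold).

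Of 24 salicylic acid genes 17 were tested, 9 were higher (19.1% of all tested genes were) and none lower (median 0.59). PR1 (AT2G14610), the standard marker of salicylic acid defence, had 0, 0 and 0.224 CPM and then 4.88, 13.1 and 9.58 CPM (log2 fold change 6.59, or 8.56 without 5 d replicate 3, which held the one 5 d read; adjusted p = 2.46e-05). PR2, a glucanase, rose from 0.898, 0.987 and 1.35 CPM to 19.1, 28.8 and 8.38 CPM (4.11 ± 0.49, adjusted p = 4.74e-05). PBS3 and AED1, an enzyme of salicylic acid synthesis and an aspartyl protease, rose from under 1 CPM to 8.34, 8.21 and 5.79 CPM and 9.15, 6.70 and 5.39 CPM (adjusted p = 1.39e-05 and 1.63e-05). ICS1, an isochorismate synthase of salicylic acid synthesis, had 10.6, 8.68 and 9.2 CPM and then 13.2, 16.9 and 12.4 CPM (0.59 ± 0.2, adjusted p = 0.0322), and the call was lost without any 5 d library or without 12 d replicate 1 or 2 (adjusted p = 0.0518 to 0.151). Upper-quartile scaling, DESeq2 and days from planting as a number lost the ICS1 call too (adjusted p = 0.0572, 0.0981 and 0.0606). The upstream regulators EDS1, PAD4 and NPR1 had log2 fold changes of -0.15, 0.47 and 0.34 and were not called (adjusted p = 0.6, 0.0755 and 0.157). PR1 did not exceed 13.1 CPM in any library.

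**Figure D5:**
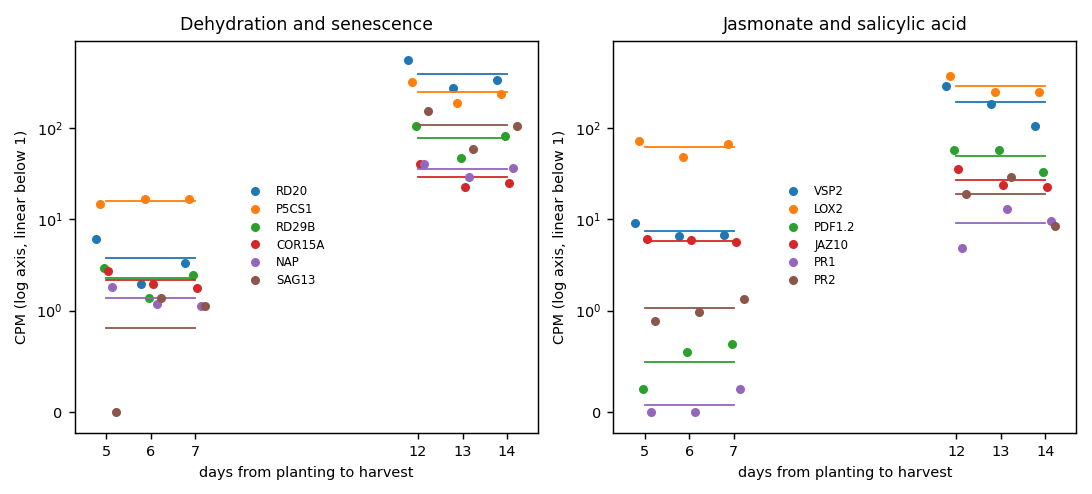
CPM of 6 dehydration and senescence genes (left) and 6 jasmonate and salicylic acid genes (right) against days from planting to harvest, on a log axis that is linear below 1; points are single libraries, shifted slightly sideways, and lines are means of 3. For all 12 genes every 12 d library lies above every 5 d library, where the ages did not overlap in 49% of all tested genes. PR1 remains the lowest of the right panel on days 12 and 13.

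Glucosinolates are sulphur-rich defence compounds of the cabbage family. Of 17 aliphatic pathway genes 16 were tested, 2 were higher and 1 lower (median -0.04), beside 19.1% and 17.4% of all tested genes. CYP79F2 fell by 0.68 (adjusted p = 0.00172) and MAM1, a chain-elongating synthase, rose by 0.59 (adjusted p = 0.00378). The third call, FMOGS-OX1, a monooxygenase of side chains, was lost without 5 d replicate 2 or 3 or 12 d replicate 1 (adjusted p = 0.0887, 0.0529 and 0.116). It was also lost with days from planting as a number (adjusted p = 0.0626). Of 14 indole, camalexin and myrosinase genes 12 were tested, 4 were higher and 1 lower, beside the same 19.1% and 17.4%. None was lower without any 5 d library or without 12 d replicate 1 or 2. TGG2 (AT5G25980), a myrosinase, rose from 21.3, 24.9 and 26.7 CPM to 171, 172 and 115 CPM (2.65 ± 0.17, adjusted p = 5.76e-07), while its relative TGG1 stood at 374, 411 and 340 CPM and then 379, 393 and 356 CPM. PAD3, of camalexin synthesis, rose from 1.35, 2.37 and 4.26 CPM to 7.93, 17.6 and 9.38 CPM (2.14 ± 0.39, adjusted p = 0.00103).

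Dehydration and cold proteins were higher at 12 d. Of 17 genes 14 were tested, 13 were higher (19.1% of all tested genes were) and none lower (median 2.12). RD20 (AT2G33380), a caleosin of abscisic acid response, rose from 6.06, 1.97 and 3.36 CPM to 557, 271 and 333 CPM (6.68 ± 0.35, adjusted p = 1.98e-07). P5CS1 (AT2G39800), the first enzyme of proline synthesis, rose from 14.6, 16.8 and 16.6 CPM to 320, 189 and 238 CPM (3.96 ± 0.20, adjusted p = 1.98e-07). GOLS2, of raffinose synthesis, rose from 3.14, 2.17 and 2.02 CPM to 29.1, 27.8 and 32.1 CPM (3.59 ± 0.22, adjusted p = 3.55e-07), and RD29B, a gene induced by abscisic acid, from 2.92, 1.38 and 2.47 CPM to 105, 46.7 and 81.2 CPM (5.11 ± 0.35, adjusted p = 7.27e-07). In all 4 of these genes replicate 2 was the lowest of the 12 d libraries. The cold regulators CBF1, CBF2 and CBF3 had at most 11 reads in any library. The letters ACGTGTC, a form of the abscisic acid response element, were present in 1 of the 17 promoters (5.88%) and in 4.35% of all tested nuclear genes. They were present in 34 of the 440 genes at least 4-fold higher (7.73%) and in 6 of the 56 at least 4-fold lower (10.7%).

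Senescence and chlorophyll breakdown genes were mostly higher. Of 15 genes 14 were tested, 11 were higher (19.1% of all tested genes were) and none lower (median 1.17). NAP (AT1G69490), a NAC factor of leaf ageing, rose from 1.80, 1.18 and 1.12 CPM to 40.5, 29.1 and 36.3 CPM (4.67 ± 0.26, adjusted p = 2.42e-07). SAG13 (AT2G29350) rose from 0, 1.38 and 1.12 CPM to 154, 59.0 and 106 CPM (6.91 ± 0.49, adjusted p = 9.56e-07). NYE1, which removes magnesium from chlorophyll, rose from 28.3, 27.0 and 27.1 CPM to 80.3, 66.7 and 76.8 CPM (1.44 ± 0.13, adjusted p = 5.26e-06), and NAC6 (AT5G39610), another NAC factor of ageing, from 6.51, 7.70 and 7.40 CPM to 36, 24.1 and 43.3 CPM (2.25 ± 0.23, adjusted p = 1.51e-05). SAG12, a protease of late senescence, had no read in any of the 6 libraries, and WRKY53 was not called (-0.10, adjusted p = 0.86). Sugar and starch genes gave 7 higher and 4 lower of 15, all tested, beside 19.1% and 17.4% of all tested genes. The number lower was 2 without 5 d replicate 1 or 3 or 12 d replicate 1. BAM5, an extraplastidic amylase, rose from 0.449, 0.789 and 0.897 CPM to 61.8, 37.5 and 17.2 CPM (5.71 ± 0.55, adjusted p = 8.74e-06). STP1, a hexose carrier, rose from 71.4, 79.5 and 70.2 CPM to 339, 303 and 273 CPM (2.05 ± 0.12, adjusted p = 3.55e-07), and SWEET12, a sucrose exporter of the phloem, fell from 41.5, 40.9 and 41.5 CPM to 19.9, 16.8 and 16.2 CPM (-1.23 ± 0.15, adjusted p = 4.83e-05).

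Light and clock genes rose in part, and the hour of harvest is not given in the labels. Of 19 light signalling genes, all tested, 8 were higher and 2 lower (1 lower without 5 d replicate 2). The share over all tested genes was 19.1% higher and 17.4% lower. CRY2, a blue-light receptor, rose from 37.5, 34.1 and 38.6 CPM to 80.5, 63.2 and 80.0 CPM (1.02 ± 0.14, adjusted p = 0.000112), and ELIP1, a protein made on exposure to bright light, fell from 588, 532 and 615 CPM to 297, 283 and 205 CPM (-1.14 ± 0.14, adjusted p = 5.02e-05). Of 16 clock genes 13 were tested, 7 were higher and none lower, beside the same 19.1% and 17.4%. The morning gene CCA1 rose from 44.5, 54.1 and 40.2 CPM to 73.6, 69.0 and 101 CPM (0.81 ± 0.17, adjusted p = 0.00208), whereas its close relative LHY, at 368, 273 and 313 CPM and then 356, 370 and 373 CPM, and the evening gene TOC1 were not called.

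Among growth hormones the gibberellin list gave 3 higher and 4 lower of 8 tested of 9 (2 lower without 5 d replicate 1 or 12 d replicate 3). The share over all tested genes was 19.1% higher and 17.4% lower. The synthesis enzymes GA20OX2 and GA3OX2 fell, from 3.59, 3.95 and 3.59 CPM to 0.61, 1.51 and 0.798 CPM (-1.87 ± 0.38, adjusted p = 0.00213) and from 10.8, 8.88 and 8.52 CPM to 3.86, 4.19 and 5.19 CPM (-1.09 ± 0.23, adjusted p = 0.00273), and the peptide gene GASA1 rose from 556, 596 and 613 CPM to 1000, 883 and 1030 CPM (0.73 ± 0.10, adjusted p = 0.000154). Of 18 auxin genes 15 were tested, 2 were lower (5 without 12 d replicate 3) and 1 higher, beside 17.4% and 19.1% of all tested genes. Among the lower was the auxin carrier PIN2, which fell from 17.7, 18.9 and 18.6 CPM to 8.34, 13.2 and 10.6 CPM (-0.77 ± 0.19, adjusted p = 0.00722). The 1 called higher, IAA16, was lost without 5 d replicate 2 or 3 or 12 d replicate 1 or 3 (adjusted p = 0.0631 to 0.146). It was also lost with upper-quartile scaling (adjusted p = 0.0556). Of 6 cytokinin response regulators only ARR5 was called (0.69 ± 0.22, adjusted p = 0.0259), and not without 5 d replicate 1 or 3 or 12 d replicate 3 (adjusted p = 0.0643 to 0.105). DESeq2 did not call ARR5 either (adjusted p = 0.0825).

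Genes often used as references for quantitative PCR did not all hold their level. Of 10, all tested, 3 were lower and 1 higher, beside 17.4% lower and 19.1% higher of all tested genes. Of the lower calls, AT4G26410 was lost without any 5 d library or without 12 d replicate 3 (adjusted p = 0.0569 to 0.105). It was also lost with plain library size (adjusted p = 0.0708). UBQ10, a polyubiquitin, rose from 1160, 1190 and 1280 CPM to 1780, 1510 and 1560 CPM (0.42 ± 0.10, adjusted p = 0.00462), and GAPC1, a glycolytic dehydrogenase, fell from 720, 853 and 814 CPM to 471, 507 and 489 CPM (-0.70 ± 0.10, adjusted p = 0.000209). AT5G60390, an elongation factor, fell from 1230, 1560 and 1400 CPM to 767, 896 and 684 CPM (-0.84 ± 0.12, adjusted p = 0.000211). ACT2, an actin, had 532, 656 and 584 CPM and then 509, 542 and 518 CPM and was not called (-0.17 ± 0.11, adjusted p = 0.219).

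Chloroplast-encoded genes took 3.09% ± 0.206 (SD, n = 3) of reads at 5 d and 2.98% ± 0.862 at 12 d, and the exact two-sided permutation test over samples gave p = 1. The spread at 12 d came from replicate 3, with 3.97% against 2.51% and 2.45%. Of 133 chloroplast loci 80 were tested, 2 were higher and 10 lower, beside 19.1% and 17.4% of all tested genes. The locus ATCG00470 had 4410, 5400 and 4550 CPM and then 3690, 3680 and 3330 CPM (-0.42 ± 0.10, adjusted p = 0.00422), and ATCG01130 had 2100, 2720 and 2050 CPM and then 1040, 1340 and 1740 CPM (-0.74 ± 0.16, adjusted p = 0.00338). Libraries were selected for poly(A), which most organelle transcripts lack, so these shares do not measure organelle RNA as a whole. The number of genes with reads was 21690 ± 166 at 5 d and 22190 ± 115 at 12 d, and the exact two-sided permutation test gave p = 0.1, the smallest that 3 against 3 libraries allow.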

How the data were processed

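Polyadenylated RNA of whole seedlings was made into stranded single-read libraries, per the labels' protocols. The authors aligned the reads with STAR to TAIR10, per the submitters' processing notes, and deposited whole-number counts of reads per gene with no normalization. The sources used here give no versions, no annotation and no statement on strand in counting. Lines that name no gene held 9.26% to 12.15% of a library's total and were left out.

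Counts of the 6 wild-type libraries were compared between ages by edgeR (4.0.16, under R 4.3.3; TMM scaling, its default filter on low counts, quasi-likelihood test) and p-values were adjusted by the Benjamini-Hochberg method over all 17836 genes tested. A gene was called at an adjusted p under 0.05. CPM values carry the TMM factors, and the SE of a log2 fold change was derived from its F statistic. Single values per library were compared by exact two-sided permutation tests. Alternatives used other scalings, filters, DESeq2 1.42.0, limma 3.58.1, other sets of libraries and a replicate block.

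Members and lists were chosen with earlier results of these data known. Named genes were, per direction, the 10 largest folds among called, non-overlapping genes of at least 10 CPM, the 6 largest differences in mean CPM, up to 4 called members per list by adjusted p (all where 5 or fewer were called), the 4 genes with most reads among those with none at one age, and 22 genes fixed with those earlier results known. Others were named after their values were seen: SESA1, EM1, EM6, SDP1, ACX4, CSY3, LHY, TOC1, NRT2.1, NRT1.1, IRT1, BHLH038, BHLH039, FER1, FER3, BTS, PYE, OPT3, AT1G47400, AT1G47395, SPX1, SPX3, PHT1;4, SQD2, MGD3, SPL2, SPL5, SPL6, SPL10, SPL11, SPL13A, SPL13B, LFY, AP1, TOE1, TOE2, SMZ, SNZ, AP2, MIR156A, MIR156C, MIR172A, MIR172B, STM, ICS1, EDS1, PAD4, NPR1, LOX2, JAZ10, SAG12, WRKY53, TT4, PAP1, MYB12, MYB111, TT8, TGG1, CBF1, CBF2 and CBF3. Of 168 named genes 38 overlap another annotated gene. The values of 1 called gene are not reported here.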

Additional observations from a re-analysis of the deposited data

How the results depend on the processing

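Across 18 alternatives none of the 160 tested genes named by rule changed direction. Of 158 called genes named by rule, 17 lost the call under at least 1 alternative, in 73 of the gene and alternative pairs. These genes were named mainly by small adjusted p or large difference, so keeping the call was favoured by the choice. Of all 6509 calls, 4802 (without 5 d replicate 3) to 6494 (without the 20 most abundant genes) were made again in the same direction. The number of called genes was 6530 with RLE size factors, 6624 with upper-quartile scaling, 6601 with plain library size, 5524 with DESeq2, 6446 with limma-voom and 7670 with all 12 libraries, and 4942 to 6741 with 1 library left out. No gene was called in the opposite direction. Upper-quartile scaling gave 44.9% of calls as higher. Leaving out 1 library gave 609 to 1050 genes at least 2-fold lower and 55 to 90 at least 4-fold lower. It also gave 11 to 28 genes with no read at 5 d and at least 30 at 12 d, and 0 to 2 with no read at 12 d and at least 30 at 5 d.

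With the replicate number as a block 6912 genes were called, 3590 higher and 3322 lower. Deviations of same-numbered libraries from their age means correlated at 0.022, 0.166 and -0.05, and not every library correlated best with its own number. These values were not tested and cannot show whether same-numbered libraries shared a batch. Genes under the count filter, among them most SPL and seed genes, could not be tested at this depth.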

Other observations

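Families defined by symbol alone, with examples chosen after their values were seen, held further changes. Of all tested genes 19.1% were higher and 17.4% lower. Of 31 heat shock genes 28 were tested, 17 were lower and 2 higher at 12 d, and their summed level was 6036 to 6153 CPM at 5 d and 3783 to 3941 CPM at 12 d. HSP81-2, a cytosolic chaperone, had 1188, 1130 and 1071 CPM and then 482, 521 and 520 CPM (edgeR log2 fold change -1.15 ± 0.10, adjusted p = 3.15e-06). HSP70 had 854, 658 and 916 CPM and then 402, 348 and 463 CPM (-1.0 ± 0.14, adjusted p = 0.00016). HSP18.2, a small heat shock protein, was one of the 2 that rose (1.07 ± 0.28, adjusted p = 0.00969).

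Of 100 NAC transcription factor genes 53 were tested, 27 were higher and 1 lower. NAC074 rose from 0.898, 0.395 and 1.35 CPM to 11.2, 10.6 and 15.6 CPM (3.81 ± 0.36, adjusted p = 7.44e-06). Of 72 WRKY genes 47 were tested, 19 were higher and 3 lower. Of 27 ERF genes 16 were tested, 7 were higher and none lower. Of 23 aquaporins of the plasma membrane and tonoplast 20 were tested, 8 were higher and 1 lower.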
